A study of Chlorocebus aethiops with 12 samples.

Results

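The report covers 6 C/EBP family transcript records of the 20037 tested: CEBPA (NM_004364), CEBPB (NM_005194), CEBPD (NM_005195), CEBPG (NM_001806), DDIT3 (NM_004083) and CEBPZ (NM_005760). The records were taken by their IDs with every probe that carries them, 9 probes in all, and the gene names came with that choice. CEBPE, another family member, was not among the chosen IDs and was not looked up. The cells were COS-1, derived from kidney of the African green monkey, and the arrays were human whole-genome 1-colour arrays. All cells were transiently transfected with V5-tagged mouse CCRP, which is a nuclear receptor co-chaperone, and with FLAG-tagged human glucocorticoid receptor, the hormone-activated transcription factor, carrying the change Y30F (tyrosine to phenylalanine) or Y30E (tyrosine to glutamate). The sample descriptions name both constructs for every sample and were followed, although another label names just CCRP for Y30F samples and just the receptor for Y30E samples. The 4 groups were Y30F-DMSO, Y30F-DEX, Y30E-DMSO and Y30E-DEX, with 3 arrays each, where DMSO is 0.1% vehicle and DEX is 100 nM dexamethasone, a synthetic glucocorticoid, each given for 6 h starting 40 h after transfection. No group with an unmutated receptor or without transfected receptor was analysed here, and the levels of the transfected genes were not checked here. Whether the replicates came from separate cultures is not in the labels, so the p-values reflect only array-to-array spread, possibly technical.

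C/EBP proteins bind DNA as dimers through a basic region and a leucine zipper and are best known for directing fat, liver and myeloid cell differentiation and the acute-phase response. CEBPA, CEBPB and CEBPD activate transcription, whereas CEBPG and DDIT3 (also called CHOP) act largely as dimer partners that alter or block the binding of the others. CEBPZ shares the name through binding to CCAAT boxes, lacks the leucine zipper and takes part in ribosome biogenesis. Glucocorticoids are long known to raise CEBPD in preadipocytes, where it acts early in the adipogenic cascade.

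The 3 slides held 4 arrays each, and slide and group overlapped in part. The Y30F-DMSO group lay on slide 1 together with replicate 1 of Y30F-DEX. The rest of Y30F-DEX shared slide 2 with replicates 1 and 2 of Y30E-DMSO. The Y30E-DEX group lay on slide 3 together with replicate 3 of Y30E-DMSO. The share of spots well above background ran from 60.5% on Y30F-DMSO replicate 1 to 67.0% on Y30E-DMSO replicate 1. Of the 18 spots of the 9 C/EBP probes, 0 were saturated, 0 were flagged as outliers and 0 failed to stand well above background on any array. All 6 records therefore passed the filter on dim probes with signal in every group. The files pair record IDs with no gene names, so the cell line was not checked against marker genes here, and other genes of the C/EBP pathway are not named. Levels below are an array's log2 signal minus its 75th percentile. Human probes can bind monkey transcripts unequally, so each probe is compared only with itself. In bulk RNA, fewer expressing cells and less transcript per cell cannot be told apart.

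The first question was what dexamethasone did to the family, averaged over both receptor mutants. CEBPD rose and DDIT3 fell, each by about the same amount on the log2 scale, and the other 4 records did not pass the test. CEBPD was 0.32 ± 0.07 higher (log2 difference, SE, 6 against 6 arrays), a fold of 1.25 with a 95% confidence interval from 1.12 to 1.40. DDIT3 was lower by a log2 difference of -0.32 ± 0.06, which left 0.800 of the DMSO level (95% confidence interval 0.730 to 0.875). The limma adjusted p-values over all 20037 records were 0.0328 for CEBPD and 0.0117 for DDIT3. Of all records, 3.77% changed in this comparison (755), 2.7% upward and 1.06% downward, and 2 of the 6 C/EBP records did. At an unadjusted p under 0.05 it was the same 2 records, against 14.1% of all records. The 6 were chosen with earlier results of these data known, so such shares, here and below, are no independent test of the family. The median log2 difference was -0.01 over the 6 and 0.01 over all records tested, and the median absolute size was 0.04 and 0.06.

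The calls of CEBPD and DDIT3 were lost with slide as a fixed block, at limma adjusted p-values of 0.150 and 0.162, while the log2 differences there were 0.38 ± 0.11 and -0.32 ± 0.09 (SE). In that fit 1.8% of all records changed (limma), and at an unadjusted p under 0.05 it was 12.4% of all records and 2 of the 6, CEBPD and DDIT3. For each mutant the blocked estimate equals the difference within the single slide that held both treatments, slide 1 for Y30F and slide 3 for Y30E, where 1 of the 2 treatments had a single array.

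**Figure D1:**
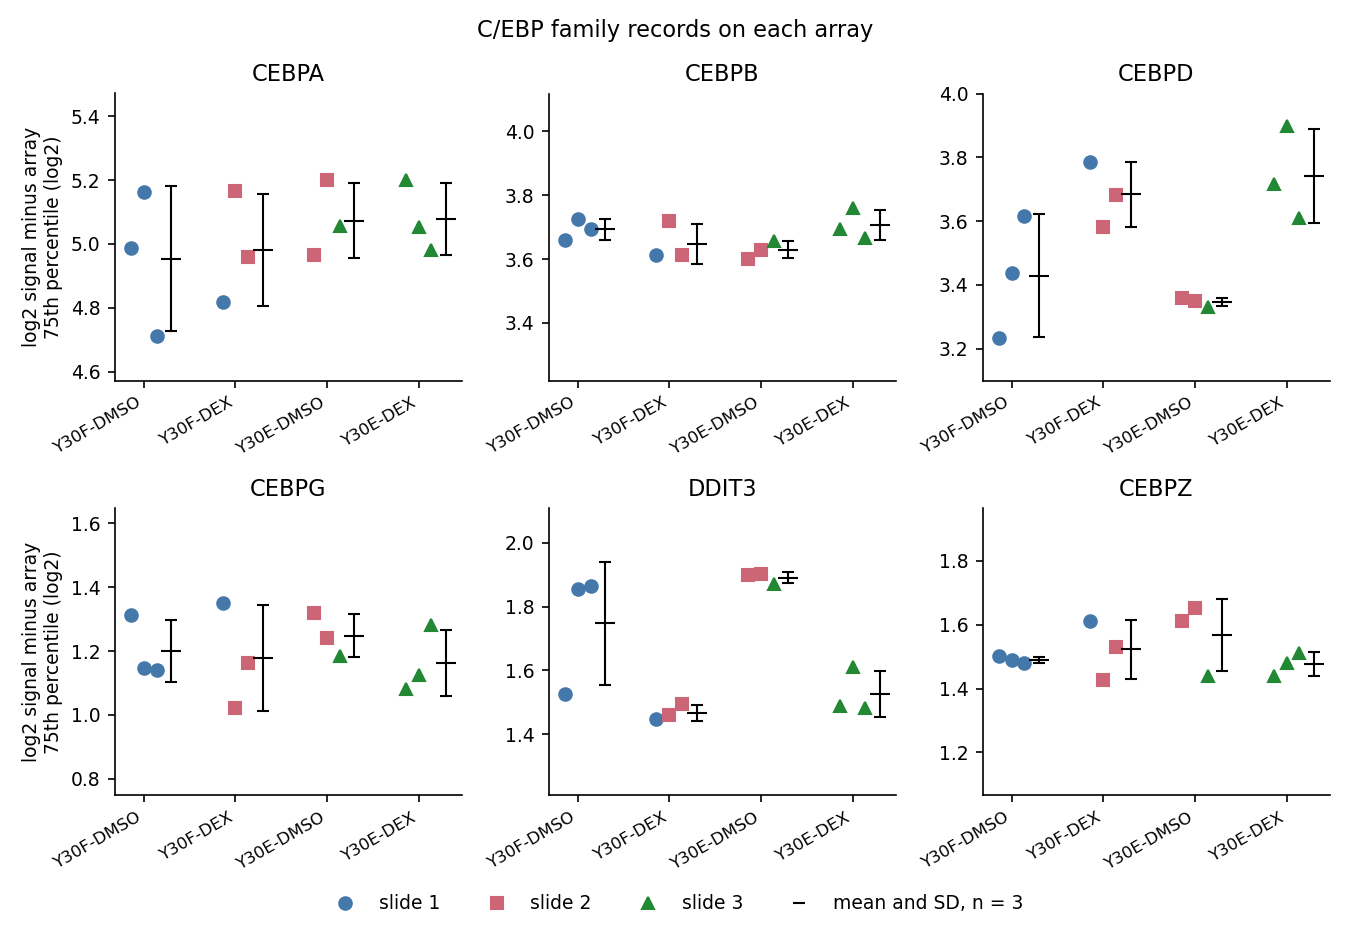
Level of each record's tested probe on all 12 arrays (vertical axis, log2 signal minus the array's 75th percentile, the same span in each panel) in the 4 groups (horizontal axis), with symbols for the slide and a bar for the mean and SD of 3 arrays. For DDIT3 the DEX arrays lie at 1.45 to 1.61 and 5 of the 6 DMSO arrays at 1.86 or above, while for CEBPB all 12 arrays lie between 3.60 and 3.76.

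Among the activators, CEBPD was the member that moved. With the Y30F receptor its levels were 3.23, 3.44 and 3.62 on the DMSO arrays and 3.79, 3.58 and 3.68 on the DEX arrays. With the Y30E receptor they were 3.36, 3.35 and 3.33 under DMSO and 3.72, 3.90 and 3.61 under dexamethasone. The Y30F groups overlapped, because DMSO replicate 3 lay above DEX replicate 2. The Y30E groups did not, which held for 22.6% of all records. The unscaled signal averaged 9109 ± 1504 in Y30F-DMSO, 10494 ± 1359 in Y30F-DEX, 8018 ± 725 in Y30E-DMSO and 10713 ± 1496 in Y30E-DEX (SD, n = 3). CEBPD was highest in Y30E-DEX, then Y30F-DEX, Y30F-DMSO and Y30E-DMSO, and neighbours in this order overlapped.

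In either mutant taken alone the CEBPD difference missed the threshold. It was 0.26 ± 0.10 (log2, SE, n = 3 against 3, limma adjusted p = 0.312) in Y30F and 0.39 ± 0.10 (limma adjusted p = 0.0926) in Y30E. The 95% intervals of these log2 differences ran from 0.03 to 0.48 and from 0.17 to 0.62. The Y30F difference was 0.16 without Y30F-DMSO replicate 1 and 0.13 with median centring of the arrays (limma adjusted p = 0.580 and 0.535). Within slide 1 the Y30F difference was 0.36 and within slide 3 the Y30E difference was 0.41 (limma adjusted p = 0.795 and 0.570). The mean effect of CEBPD also rested on most arrays together: it kept its call without Y30F-DMSO replicate 3, Y30F-DEX replicate 2 or Y30E-DEX replicate 3, and lost it when any 1 of the other 9 arrays was left out, with limma adjusted p-values from 0.0149 to 0.0804 and log2 differences from 0.28 to 0.37 over the 12 fits.

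CEBPB, an activator of acute-phase genes and of early adipogenesis, was the most tightly measured member. Its bright probe, A_23_P411296, was printed in 10 spots per array, which were averaged. The levels were 3.66, 3.72 and 3.69 in Y30F-DMSO, 3.61, 3.72 and 3.61 in Y30F-DEX, 3.60, 3.63 and 3.66 in Y30E-DMSO and 3.69, 3.76 and 3.67 in Y30E-DEX. All 12 arrays lay within 1.12-fold of each other. The mean dexamethasone effect on CEBPB was 0.02 ± 0.03 (log2, SE, limma adjusted p = 0.902), with a 95% interval from 0.960-fold to 1.07-fold. The effect was -0.05 ± 0.05 in Y30F and 0.08 ± 0.05 in Y30E (log2, SE, n = 3 against 3), with limma adjusted p-values of 0.744 and 0.499, and the mean effect with the slide block was -0.02. The Y30E groups did not overlap, with DEX above DMSO by a narrow margin, as did those of 22.6% of all records.

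**Figure D2:**
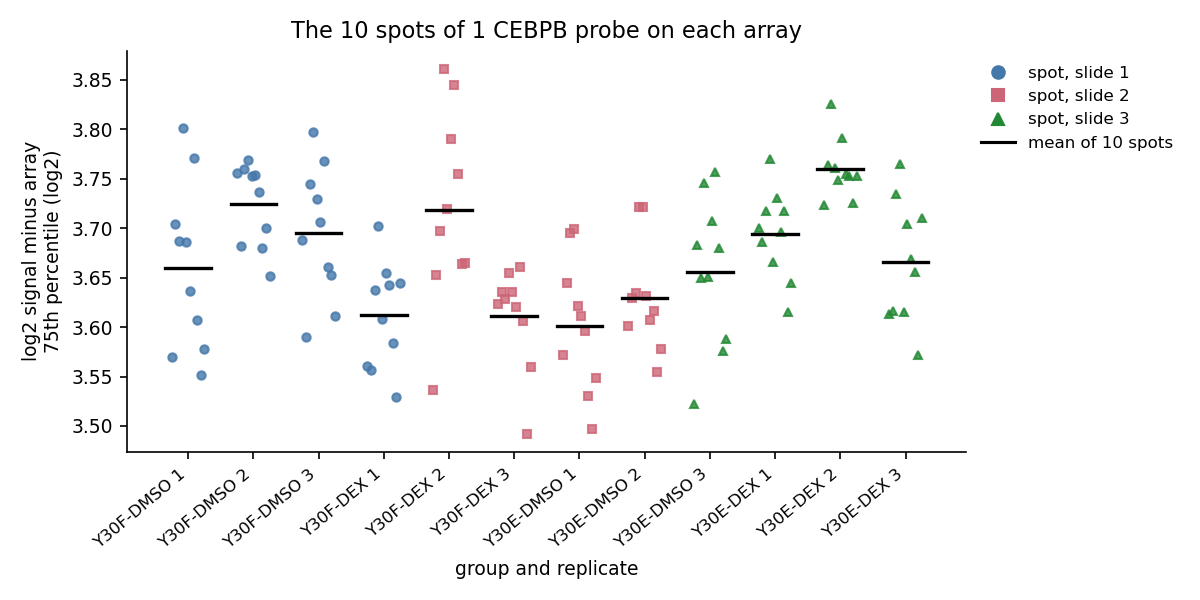
Level of each of the 10 spots of CEBPB probe A_23_P411296 (vertical axis, log2 signal minus the array's 75th percentile) on each array (horizontal axis, group and replicate), with symbols for the slide and a line for the mean. The spots of 1 array spread about as widely as the 12 array means do, though each mean averages 10 spots.

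The 10 spots gave the spread between spots within an array. Their SD was 0.06 (log2) at the median over arrays and ranged from 0.03 on Y30E-DEX replicate 2 to 0.10 on Y30F-DEX replicate 2. Part of this spread followed position, as spot 4 lay above and spot 9 below its array's mean on every array. The SD of the 12 array means of CEBPB was 0.05. Each of these means averages 10 spots, so their SD is not directly comparable with that of single spots. The lowest single spot read 8299 and the highest 12178, on Y30E-DMSO replicate 2 and Y30F-DMSO replicate 3. A second CEBPB probe, A_23_P143242, was much dimmer, at signals from 293 to 391. Its mean effect was 0.07 ± 0.08 (log2, SE, limma adjusted p = 0.807 over all probes). The signs of the 2 CEBPB probes differed in Y30F, at -0.05 ± 0.05 and 0.13 ± 0.11 (log2, SE, n = 3 against 3), with intervals that overlapped.

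CEBPA, which promotes terminal differentiation and restrains proliferation, had 3 probes. On the brightest, A_24_P216165, the levels were 4.99, 5.16 and 4.71 in Y30F-DMSO, 4.82, 5.17 and 4.96 in Y30F-DEX, 4.96, 5.20 and 5.05 in Y30E-DMSO and 5.20, 5.05 and 4.98 in Y30E-DEX. All 4 groups overlapped, and replicates of 1 group differed by up to 1.37-fold in Y30F-DMSO. The mean dexamethasone effect on CEBPA was 0.02 ± 0.09 (log2, SE, limma adjusted p = 0.968), with a 95% interval from 0.882-fold to 1.16-fold, and -0.06 with the slide block. It was 0.03 ± 0.12 in Y30F and 0.01 ± 0.12 in Y30E.

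The other CEBPA probes spread less between arrays and gave mean effects of 0.02 ± 0.04 (A_23_P375494) and -0.01 ± 0.05 (A_24_P224727) (log2, SE, limma adjusted p = 0.917 and 0.957 over all probes). On A_23_P375494 the Y30E-DEX arrays, at 1.44, 1.42 and 1.50, lay above the Y30E-DMSO arrays, at 1.36, 1.39 and 1.33. Y30E groups were apart for 22.6% of all records, each taken on its brightest probe, which leaves out A_23_P375494. The Y30F-DEX arrays of that probe, at 1.31, 1.34 and 1.35, lay within the range of its Y30F-DMSO arrays, at 1.26, 1.38 and 1.53. The difference of its effects was 0.14 ± 0.09 (log2, SE, n = 3 per group) and did not pass (limma adjusted p = 0.625).

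**Figure D3:**
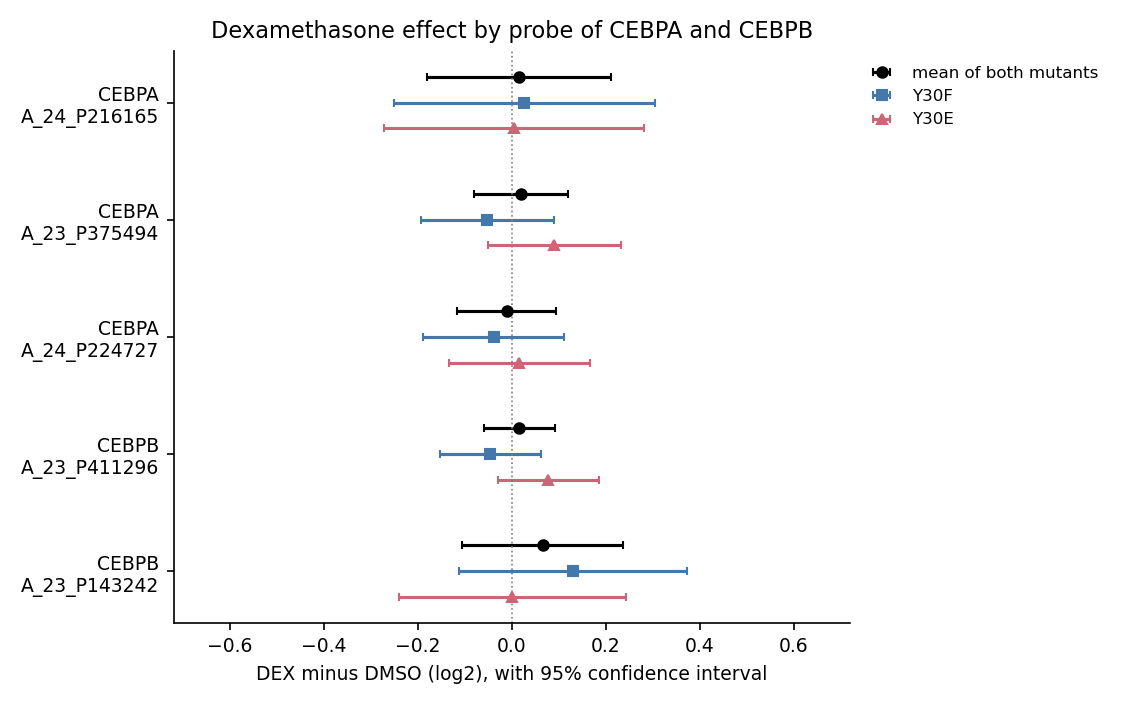
Dexamethasone effect (horizontal axis, log2 difference with its 95% confidence interval) for the 3 CEBPA probes and 2 CEBPB probes (vertical axis), as the mean of both mutants and in each mutant. Every interval spans 0, and the mean effects of the 5 probes lie between -0.01 and 0.07.

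Among the dimer partners, DDIT3, a gene induced by endoplasmic reticulum and amino acid stress whose product is linked to cell death, was the member that fell. With the Y30F receptor its levels were 1.53, 1.86 and 1.86 under DMSO and 1.45, 1.46 and 1.49 under dexamethasone. With the Y30E receptor they were 1.90, 1.90 and 1.87 under DMSO and 1.49, 1.61 and 1.48 under dexamethasone. DEX arrays lay below DMSO arrays in both mutants without overlap, which held in the same direction in both mutants for 4.95% of all records and for no other C/EBP record. The unscaled signal averaged 2838 ± 413 in Y30F-DMSO, 2249 ± 172 in Y30F-DEX, 2921 ± 249 in Y30E-DMSO and 2298 ± 195 in Y30E-DEX (SD, n = 3).

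The DDIT3 difference missed the threshold in each mutant alone. It was -0.28 ± 0.08 (log2, SE, n = 3 against 3, limma adjusted p = 0.162) in Y30F and -0.36 ± 0.08 (limma adjusted p = 0.0577) in Y30E. The within-slide log2 differences were -0.30 on slide 1 and -0.34 on slide 3 (limma adjusted p = 0.857 and 0.448). Y30F-DMSO replicate 1, at 1.53, stood nearest to the DEX arrays. Without it DDIT3 passed in Y30F, at -0.39 ± 0.05 (log2, SE, limma adjusted p = 0.00721), and in Y30E (limma adjusted p = 0.00386). The Y30E log2 difference stayed at -0.36 and only its SE fell, from 0.08 to 0.05, as all groups share 1 estimate of the spread. Y30F-DMSO replicate 1 was the only 1 of the 12 left-out arrays without which DDIT3 passed in either mutant. Over the 12 fits the limma adjusted p-values reached 0.397 in Y30F and 0.194 in Y30E. The mean effect of DDIT3 passed with any single array left out, with limma adjusted p-values from 3.12e-04 to 0.0370.

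CEBPG, the partner that lacks an activation domain, did not pass the test for a dexamethasone effect. Its levels were 1.31, 1.15 and 1.14 in Y30F-DMSO, 1.35, 1.02 and 1.16 in Y30F-DEX, 1.32, 1.24 and 1.18 in Y30E-DMSO and 1.08, 1.13 and 1.28 in Y30E-DEX. All 4 groups overlapped. The mean effect was -0.05 ± 0.06 (log2, SE, limma adjusted p = 0.809), with a 95% interval from 0.874-fold to 1.06-fold, and its sign turned with slide as a block (0.07 ± 0.08, limma adjusted p = 0.795).

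CEBPZ, the member without a leucine zipper, had levels of 1.50, 1.49 and 1.48 in Y30F-DMSO, 1.61, 1.43 and 1.53 in Y30F-DEX, 1.61, 1.65 and 1.44 in Y30E-DMSO and 1.44, 1.48 and 1.51 in Y30E-DEX. The Y30F-DMSO arrays lay inside the range of the Y30F-DEX arrays. The mean effect was -0.03 ± 0.05 (log2, SE, limma adjusted p = 0.864), with a 95% interval from 0.913-fold to 1.05-fold, and its sign turned too under the slide block, to 0.08 ± 0.05 (limma adjusted p = 0.578).

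**Figure D4:**
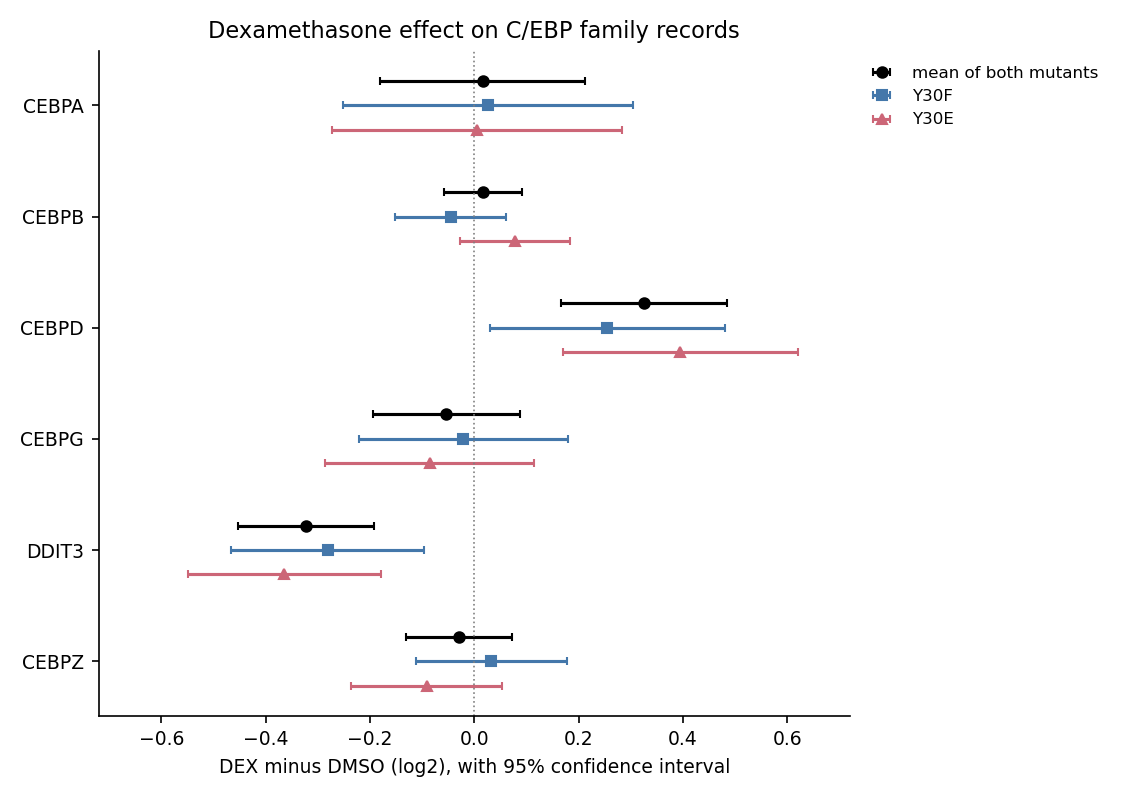
Dexamethasone effect (horizontal axis, log2 difference with its 95% confidence interval) on the 6 C/EBP records (vertical axis), as the mean of both mutants and in each mutant. The 3 intervals of CEBPD lie above 0 and the 3 of DDIT3 below 0, and those of the other 4 records span 0.

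Within single mutants, 0 of the 6 records passed in Y30F, where 1.82% of all records did, and 0 of 6 passed in Y30E, where 2.11% did (limma). At an unadjusted p under 0.05 it was CEBPD and DDIT3 in both mutants, against 13.4% of all records in Y30F and 14.3% in Y30E. Groups did not overlap for 1 of 6 records in Y30F (DDIT3), against 15.4% of all records, and for 3 of 6 in Y30E (CEBPB, CEBPD and DDIT3), against 22.6%.

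The next question was whether the 2 receptor mutants differed in their effect on the family. The Y30E effect minus the Y30F effect passed for 0 of 6 records, and for 0% of all records (limma). At an unadjusted p under 0.05 it was 0 of 6, against 11.3% of all records. The log2 difference was 0.14 ± 0.14 for CEBPD (SE, n = 3 per group, 95% interval -0.18 to 0.46) and -0.08 ± 0.12 for DDIT3 (-0.34 to 0.18), where median centring of the arrays gave 0.10. For CEBPD median centring gave 0.32, the slide block 0.05 and leaving out Y30F-DMSO replicate 1 gave 0.24, and none of these passed. The interval of CEBPB was the narrowest, -0.03 to 0.27 around 0.12 ± 0.07, and median centring gave 0.30 (limma adjusted p = 0.172), outside that interval. With that centring the median over all records was 0.17. The intervals were -0.41 to 0.37 for CEBPA, -0.35 to 0.22 for CEBPG and -0.33 to 0.08 for CEBPZ. These intervals bound a difference of the mutants' effects and leave out offsets between slides.

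Y30E was also set against Y30F within each treatment, and these comparisons share their arrays with those above. Under DMSO 0 of 6 records passed (limma), against 0.00998% of all records, and under dexamethasone 0 of 6 passed, against 0.015%. At an unadjusted p under 0.05 both counts were also 0 of 6 in the fit without slide, against 13.9% and 13.6% of all records. DDIT3 was 0.14 ± 0.08 (log2, SE, n = 3 against 3, limma adjusted p = 0.482) higher in Y30E-DMSO than in Y30F-DMSO, but 0.03 without Y30F-DMSO replicate 1 and -0.04 with median centring. CEBPB was lower there by a log2 difference of -0.06 ± 0.05 (limma adjusted p = 0.606), which was -0.25 with median centring (limma adjusted p = 0.0517) and -0.13 with the slide block (limma adjusted p = 0.818). Median centring moved the median over all records there to -0.16 and called 1578 records (limma), against 2 in the reported fit. DDIT3 and CEBPB were the records whose DMSO groups did not overlap, which held for 20% of all records. Under dexamethasone no C/EBP record had groups apart, against 20.4% of all records, and the log2 differences ran from -0.05 (CEBPZ) to 0.10 (CEBPA). No slide held the same treatment in both mutants, so these comparisons have no within-slide value. With slide as a fixed block the difference under DMSO was larger for CEBPG, at 0.34 ± 0.14 (log2, SE, 95% interval 0.01 to 0.67) against 0.05 without it, and for CEBPZ, at 0.28 ± 0.09 (0.06 to 0.49) against 0.08. Neither passed (limma adjusted p = 0.756 and 0.682). At an unadjusted p under 0.05 CEBPG and CEBPZ were 2 of 6 in that fit, against 6.49% of all records, and 0.00998% of all records passed after adjustment. Under dexamethasone the slide block gave 0 of 6 at either threshold, against 0.0948% of all records adjusted and 4.51% unadjusted (limma).

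DDIT3 had the smallest p of the family in the mean dexamethasone effect, so the records most like it were sought over the 12 arrays. The 3 highest Pearson correlations among all records tested were 0.947 (NM_007350), 0.944 (NM_006300) and 0.942, and are given as a description. The files do not pair these IDs with gene names. All 3 were chosen for following DDIT3 over the same arrays, so lower values with dexamethasone follow from the choice and are no separate result. The log2 differences were -0.27, -0.15 and -0.36 in that order. NM_007350 and NM_006300 were dim, with mean levels of -2.44 and -2.03 under DMSO.

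**Figure D5:**
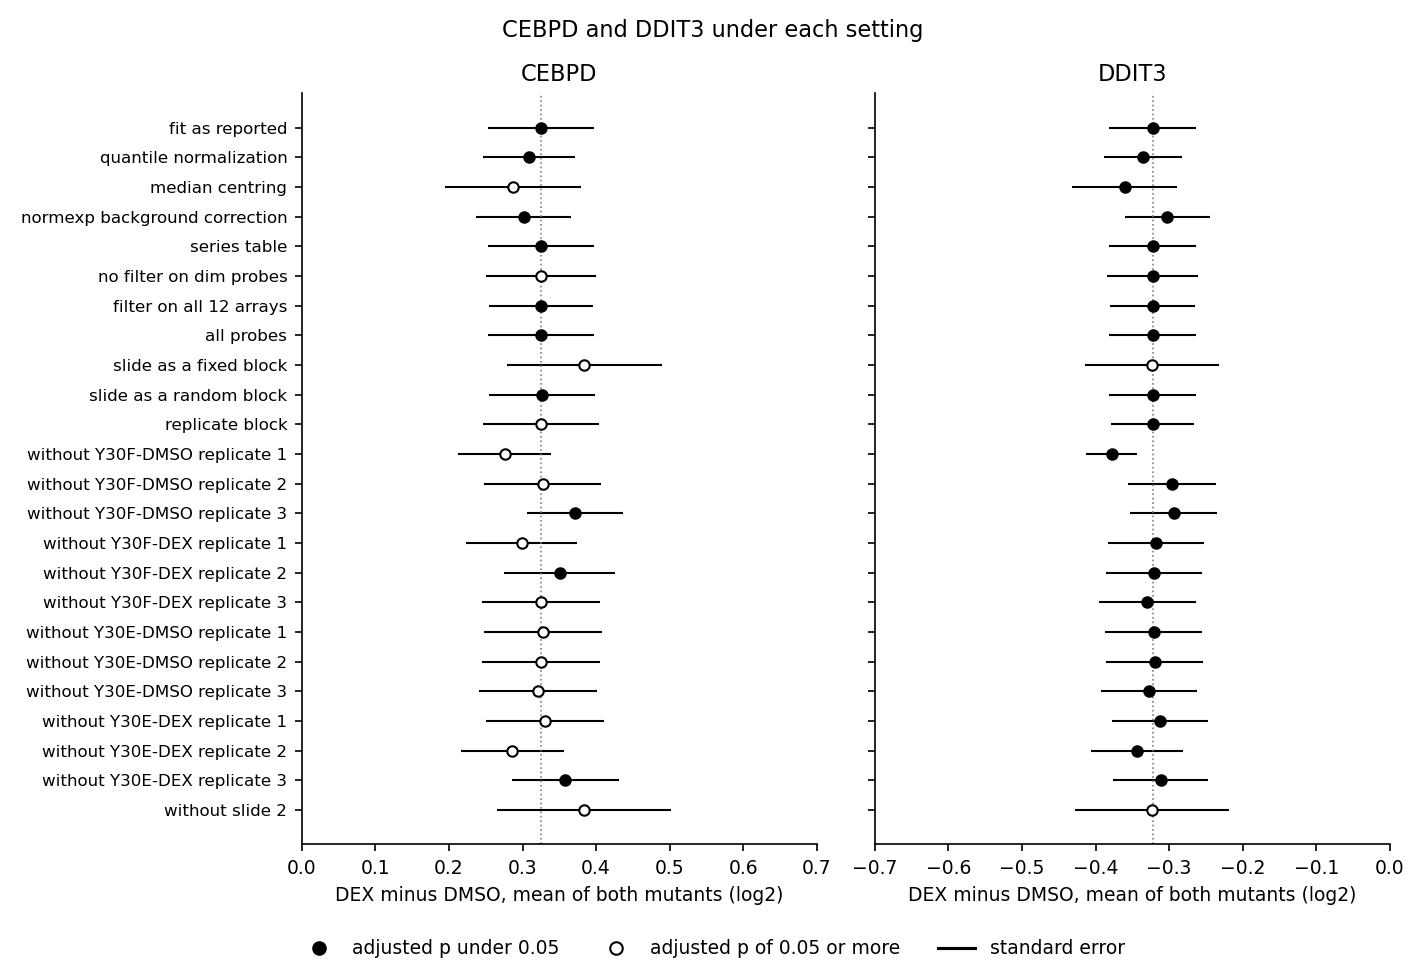
Mean dexamethasone effect on CEBPD and DDIT3 (horizontal axis, log2 difference with its SE) under the fit as reported and 23 other settings (vertical axis), with filled points at an adjusted p under 0.05. Each of the 23 settings keeps the sign for both records. The call holds in 9 of the 23 for CEBPD and in 21 of the 23 for DDIT3, which loses it with slide as a fixed block and without slide 2. The 23 include the series table, whose values are those of the reported fit, and 12 fits that each leave out 1 array.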

How the data were processed

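RNA from each of 12 samples was Cy3-labelled and put on 1 Agilent human 4x44 array, per the labels' protocols. The deposited intensity values are processed green signals, made by the authors with Agilent Feature Extraction (version 12), which subtracts background and detrends within an array, per the file headers. Spot flags and the median signal and background intensity came from the same deposited files. The deposited series table differed from them at 0 spots.

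From each log2 signal the array's 75th percentile was subtracted (43376 spots without controls, percentile signals from 706 to 876). Between 89 and 154 outlier spots per array were left out, and a probe's spots were averaged. The filter kept probes with at least 0.5 of the spots carrying the well-above-background flag on each array of a group, and the brightest probe stood for each record. The resulting 20037 records were tested with limma 3.58.1 in R 4.3.3, by lmFit with a mean for each of the 4 groups and eBayes, with Benjamini-Hochberg adjustment over all records and a threshold of 0.05. Separate fits used all 25570 probes. The script was tested on simulated data.

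The rule for named genes takes all 6 C/EBP records and the records most like the member with the smallest p. The members and lists were chosen with earlier results of these data known. The planned lists of partner, target and marker genes were not used, since the files hold no gene names. Alternatives covered quantile normalization, median centring, normexp (offset 50, on the median signal), the series table, 2 other filters, every probe, the slide as fixed or random block (statmod 1.5.0), single slides, a replicate block, fits of the compared groups only, and left-out arrays. The number of arrays limits the precision.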

Additional observations from a re-analysis of the deposited data

How the results depend on the processing

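The count of C/EBP records changed in the mean dexamethasone effect, 2 as reported, was 1 with median centring, with no filter on dim probes and with the replicate block, DDIT3 each time. It was 0 with slide as a fixed block and without slide 2, a setting added after seeing the data. Over single left-out arrays it ranged from 1 to 2. In Y30E the count of 0 became 1 (DDIT3) with quantile normalization, normexp, the filter on all 12 arrays and the compared groups alone, and ranged from 0 to 1 over left-out arrays, as it did in Y30F. The counts for the difference of the effects and for Y30E against Y30F stayed at 0 in all settings run. Same-numbered replicates did not deviate together (correlations of -0.126 to 0.110 over 12 pairs, and 0 of 12 arrays closest to its own number), so the numbers were not taken as pairs. With the replicate block CEBPD lost its call in the mean effect (limma adjusted p = 0.0827) and DDIT3 kept it (0.0190). The sign of a single record's log2 difference turned 68 times, 25 of them with an array left out, and in 0 of these did the record pass. Median centring also moved the median over all records, from 0.02 to -0.11 for the Y30F effect, from -0.01 to 0.17 for the difference of the effects and from 0.02 to -0.16 for Y30E against Y30F under DMSO. With it the mean effect was -0.022 for CEBPA and -0.022 for CEBPB, the Y30F effect -0.10 for CEBPA and -0.10 for CEBPZ, and the difference of the effects 0.16 for CEBPA, 0.12 for CEBPG, 0.057 for CEBPZ and 0.10 for DDIT3. Y30E against Y30F under DMSO was then -0.065 for CEBPA, -0.14 for CEBPG, -0.11 for CEBPZ and -0.043 for DDIT3. With quantile normalization CEBPA was -0.017 in the mean effect, -7.1e-05 in Y30F and -0.034 in Y30E, CEBPB was -0.0050 in the mean effect, and CEBPG was 0.0025 for Y30E against Y30F under dexamethasone. With slide as a fixed block and without slide 2 alike, the mean effects were -0.057 (CEBPA), -0.015 (CEBPB), 0.065 (CEBPG) and 0.079 (CEBPZ), the Y30F effects -0.14 (CEBPA) and 0.15 (CEBPG), the Y30E effect 0.037 (CEBPZ) and the difference of the effects 0.16 (CEBPA). Slide 1 alone gave the same -0.14 and 0.15, and slide 3 alone the same 0.037. Signs that turned in Y30E against Y30F under the slide block were -0.12 (CEBPA) and 0.080 (CEBPD) under DMSO and 0.17 (CEBPG) and 0.19 (CEBPZ) under dexamethasone, while CEBPG and CEBPZ under DMSO kept their sign and grew to 0.34 and 0.28. Without slide 2 it was -0.015 (CEBPG) and -0.050 (CEBPZ) under DMSO and -0.045 (CEBPD) under dexamethasone. Over left-out arrays the mean effect ranged from -0.045 to 0.068 for CEBPA and from -0.0017 to 0.026 for CEBPB. The Y30F effect ranged from -0.095 to 0.13 (CEBPA), -0.11 to 0.057 (CEBPG) and -0.012 to 0.081 (CEBPZ), and the Y30E effect of CEBPA from -0.056 to 0.068. The difference of the effects ranged from -0.13 to 0.10 (CEBPA), -0.14 to 0.023 (CEBPG) and -0.14 to 0.028 (DDIT3). Y30E against Y30F ranged under DMSO from -0.0023 to 0.22 (CEBPA) and -0.18 to 0.012 (CEBPD), and under dexamethasone from -0.021 to 0.12 (CEBPD) and -0.094 to 0.071 (CEBPG). The causes of these changes were not tested.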
